A study of Mus musculus with 10 samples.

Results

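The replication-dependent histone genes are the clustered genes whose mRNAs supply most of the histone protein that is packed onto new DNA. Here they were taken as all genes whose symbol begins with Hist1h, Hist2h, Hist3h or Hist4h, with no use of their levels, which gave 68 of the 22878 genes listed. By the histone they encode, 6 were H1, 18 H2A, 19 H2B, 12 H3 and 13 H4 genes, and 2 of the 68 are named as pseudogenes. PolyA RNA was sequenced from ES cells of the mouse line R1, which is kept in LIF and serum, and from the embryoid bodies (EBs) that these cells form in low attachment dishes without LIF. Each culture carried a lentiviral shRNA, shLuc against luciferase as the control or shSmyd5 against Smyd5, a lysine methyltransferase gene, and the libraries came from ES cells and from EBs at 24 h and on days 6, 10 and 14. There was 1 library per condition, 10 in all, so a fold between 2 libraries has no replicate check. The ES cells had been grown on feeder cells and then passaged on gelatin with CHIR9901, a GSK3 inhibitor, before RNA was taken. The labels name no clone for either shRNA.

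Reads in genes numbered 3895537 in the shallowest library (shLuc ES cells) and 43377814 in the deepest (shLuc, day 6), of which 2122 to 21931 fell in the 68 histone genes. Smyd5 itself was lower in the shSmyd5 library at every stage, with an RPKM (reads per kilobase of transcript, scaled to library size) that in ES cells was 29.7 in shLuc against 4.51 in shSmyd5, and then 10.7 against 0.891 at 24 h, 15.4 against 0.492 on day 6, 25 against 9.14 on day 10 and 13.1 against 6.88 on day 14. The ES cell markers Pou5f1, Nanog and Zfp42 summed to 1206.2 and 546 in shLuc and shSmyd5 ES cells and to 22.0 and 11.7 in EBs of day 14. The endoderm markers Gata6, Sox17 and Afp summed to 0.730 and 0.431 in ES cells, where Afp was at 0, and to 2583 and 2433 on day 14. Afp made up most of the day 14 sums (2512 and 2332), while Gata6 was at 51.3 and 55.4 and Sox17 at 19.5 and 45.0. Col1a1, Col1a2 and Thy1, which mark feeder cells and mesenchyme, summed to 4.49 and 3.55 in ES cells and to 1714 and 953 on day 14. Thy1 made up most of the ES cell sums (3.82 and 3.30) and was lower on day 14 (1.78 and 0.928). Col1a1 went from 0.534 and 0.237 to 856 and 529, and Col1a2 from 0.139 and 0.00985 to 857 and 422.

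Most replication-dependent histone mRNAs end in a conserved stem-loop in place of a polyA tail. The stem-loop is bound by SLBP, which guides the U7 snRNP to cut the transcript just after it, and the mRNAs are made in S phase and destroyed when DNA synthesis ends. A polyA library therefore keeps only the share of these transcripts that carries a tail or comes through the selection by other means, and a level below is a level in such a library and no measure of the whole histone mRNA. In bulk RNA a fall in cycling cells and a fall in mRNA per cell cannot be told apart.

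The stem-loop is written in the genome just after the stop codon, and the 6 sequences here are shown since they belong to genes that the results turn on, 1 or more of each histone type. Capitals mark the stem-loop of 16 bases, which has a stem of 6 base pairs that opens with GG and a loop of 4 bases, with 5 bases on either side. All were read 5′ to 3′ on the strand of the gene from the NCBIM37 (mm9) genome.
Hist1h1c, chr13:23831376-23831401, plus strand: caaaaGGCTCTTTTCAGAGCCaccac
Hist1h2ad, chr13:23666759-23666784, plus strand: acaaaGGCTCTTTTCAGAGCCatcca
Hist1h2ao, chr13:21902762-21902787, plus strand: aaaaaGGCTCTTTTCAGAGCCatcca
Hist1h2bc, chr13:23776511-23776536, plus strand: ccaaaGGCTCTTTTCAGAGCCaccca
Hist2h3c1, chr3:96051245-96051270, plus strand: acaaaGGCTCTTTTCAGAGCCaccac
Hist1h4i, chr13:22132830-22132855, minus strand: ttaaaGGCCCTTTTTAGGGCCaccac

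Such a stem-loop lay within 100 bases after the stop codon in 61 of the 66 histone genes whose stop codon is annotated (GENCODE release M1), on the strand of the gene. It began 21 to 58 bases after the stop codon. Among all 30683 annotated stop codons 66 (0.215%) were followed by one, and the genes outside the histone clusters were 5, the histone variant gene H2afx among them. The stem-loop in 39 of the 61 genes was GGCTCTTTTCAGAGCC, and 9 more had an A in the loop in place of its C; both forms occurred in H1, H2A, H2B and H3 genes. All 12 stem-loops of H4 genes had another stem, most often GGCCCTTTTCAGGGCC (8 genes). Hist1h1c and Hist1h2bc, which were higher in some EB libraries than in ES cells, and Hist1h2ad, which was lower in all of them, thus carry the same 16 bases.

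The 68 genes lie in few places, 54 of them between 21807632 and 24026720 of chromosome 13, 9 on chromosome 3, 3 on chromosome 11 and 1 on chromosome 6, while the pseudogene Hist2h3c2-ps was not placed here. Many copies are close to identical, so the reads of one gene can come from another. In the coding sequence of an H2A gene the 31-base words occurred at a median of 12 places in the genome (the median over the 18 genes), and in 6 H2A genes no such word was unique. The H1 genes had a median of 83.4% of their words at 1 place only. The H2A gene with the most sequence of its own was Hist1h2aa (88.2% of words), followed by Hist3h2a (80.8%) and Hist2h2ab (66.4%). For RNA-Seq the counting of reads that match many places is not given in the sources used here, so levels of single H2A genes are uncertain and the genes are no independent measurements of each other. Of the 66 genes with a coding sequence, 32 are listed with a length that equals the coding sequence and its stop codon, and such a model holds neither the stem-loop nor the rest of a 3′ end.

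H2A genes made up most of what was measured. In shLuc ES cells they held 93.9% of the reads of the family (95% Wilson interval 93.2 to 94.6), and in shSmyd5 ES cells 89.5% (89.1 to 89.9). In EBs their share ran from 51.5% in shLuc EBs of 24 h to 85.7% in shLuc EBs of day 10. The intervals here and below cover counting error only, and they take every listed read as a separate read. The RPKM summed over the 18 H2A genes was 1579.9 in ES cells with shLuc and 1054 in those with shSmyd5. The sums of the other types in the same libraries were 33.9 and 30.6 for H2B, 18.0 and 36.0 for H3, 14.3 and 21.2 for H4 and 9.15 and 11.2 for H1. The proteins of the core histones are needed in equal amounts, whereas the sums in this polyA RNA were far apart.

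**Figure D1:**
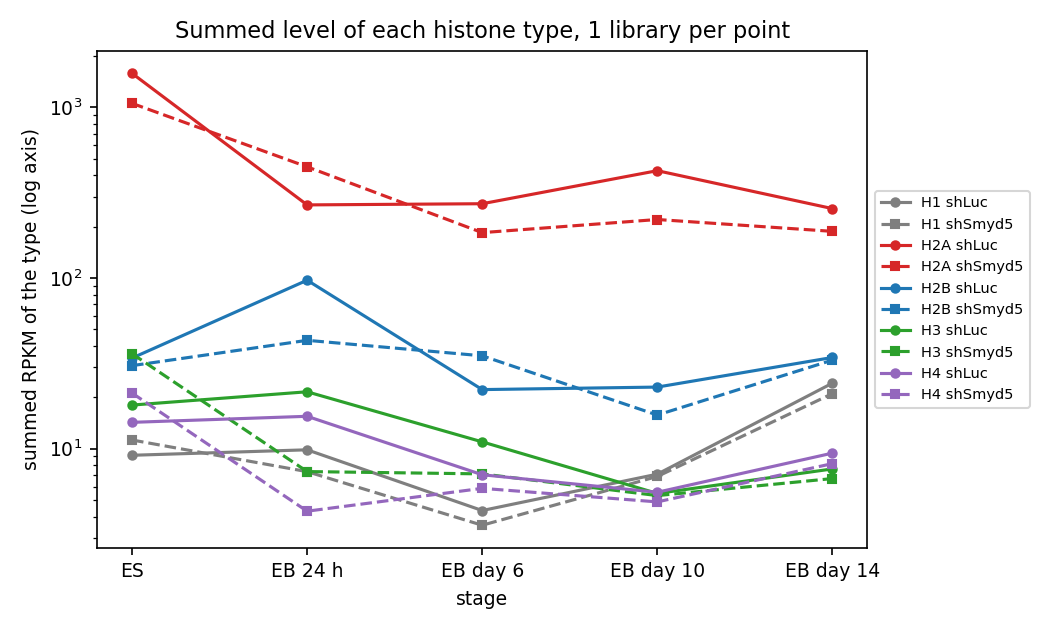
Summed RPKM (log axis) of the H1, H2A, H2B, H3 and H4 genes at each stage, with circles and solid lines for shLuc and squares and dashed lines for shSmyd5, 1 library per point. H2A lies above the other types in all 10 libraries and is highest in both ES cell libraries (1579.9 and 1054).

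The H2A genes were lower in EBs than in ES cells. In shLuc the H2A sum was 1579.9 in ES cells, 268 at 24 h, 272 on day 6, 425 on day 10 and 255 on day 14. In shSmyd5 it was 1054, 448, 184, 220.0 and 188 at the same stages. Against ES cells with the same shRNA, the EB sums were 3.72-fold (day 10) to 6.20-fold (day 14) lower in shLuc, and 2.35-fold (24 h) to 5.72-fold (day 6) lower in shSmyd5. So most of the difference was already there at 24 h in shLuc, and less of it in shSmyd5, where 2 genes described below stayed high. The RNAs of the family as a whole took 0.112% and 0.0834% of all reads in genes in shLuc and shSmyd5 ES cells and 0.0183% to 0.0436% in the 8 EB libraries.

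Hist1h2ad, the H2A gene with the highest mean level after Hist1h2ao and Hist1h2ap, had an RPKM of 155 in shLuc ES cells and of 21.5, 22.1, 36.1 and 18.7 in shLuc EBs of 24 h and days 6, 10 and 14. In shSmyd5 it had 101 in ES cells and 20, 5.53, 21.5 and 14.4 in the EBs. Both ES cell libraries were above all 8 EB libraries. This was so for 15 of the 18 H2A genes, 2 of the 3 H1, 2 of the 6 H2B and 5 of the 8 H3 genes that reached an RPKM of 3 in any library, and not for the 1 such H4 gene, 24 of 36 in all, where it was so for 15.1% of the 12087 genes of that level. The 9 H1, H2B and H3 genes among the 24 reached that level in ES cells alone, so that their order was largely fixed by the threshold, whereas the 15 H2A genes reached it in EBs too. The 3 H2A exceptions were Hist1h2ap, Hist1h2aa and Hist3h2a. Hist3h2a is listed with a transcript of 1990 bases, and it lay between 3.15 (shLuc ES cells) and 5.99 (shLuc EBs of day 14), with both ES cell libraries below all EB libraries, as for Hist3h2ba and Hist2h3c1.

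**Figure D2:**
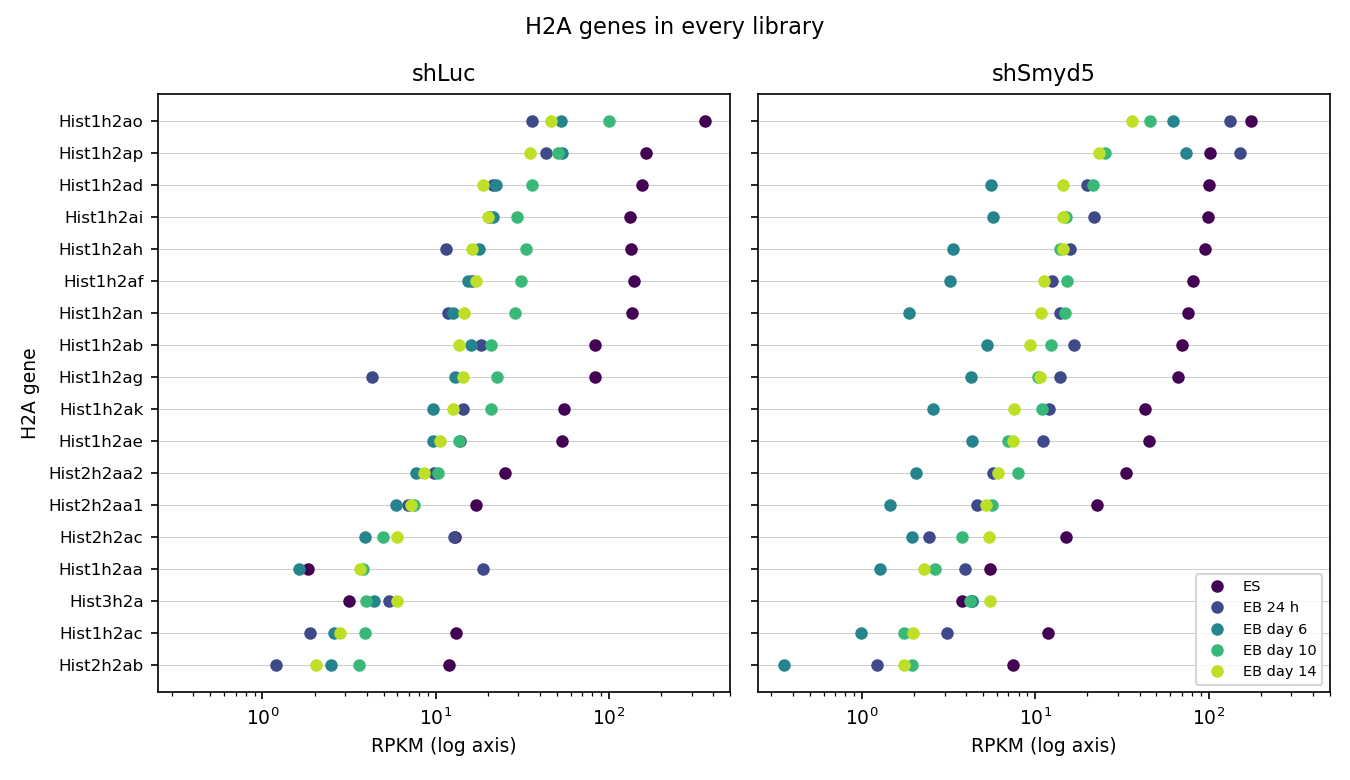
RPKM (log axis) of each of the 18 H2A genes in shLuc (left) and shSmyd5 (right), 1 point per library, coloured by stage and ordered by mean level. The ES cell points stand apart on the right for most genes, and the day 6 points of shSmyd5 are the lowest for most.

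Taken library by library, a histone gene was counted as lower where its RPKM (plus 0.1) was at least 2-fold below that of ES cells and where either library reached an RPKM of 3. In shLuc 18 of 26 genes of that level were lower at 24 h, against 42.7% of all genes. On day 6 the count was 19 of 22 (29.5% of all genes), on day 10 it was 19 of 24 (15.7%) and on day 14 it was 19 of 25 (26%). In shSmyd5 the counts were 22 of 31 at 24 h (21.6%), 26 of 31 on day 6 (32.7%), 26 of 31 on day 10 (16%) and 26 of 30 on day 14 (19.3%). Some of these genes had the level to be compared through the ES cell library alone, and those nearly had to be lower, so the counts are read together with the genes that reached it in the EB library as well. In shLuc 5, 5, 3 and 5 genes at 24 h and on days 6, 10 and 14 reached it in ES cells alone and all were lower, and of the others 13 of 21, 14 of 17, 16 of 21 and 14 of 20 were lower. In shSmyd5 12, 18, 13 and 13 genes reached it in ES cells alone, of which 10, 18, 12 and 12 were lower, and of the others 12 of 19, 8 of 13, 14 of 18 and 14 of 17 were. Comparisons with the same shRNA share their ES cell library. The shLuc library of 24 h was lower for genes at large too, with a median log2 fold of -0.62 over all genes compared. With TMM factors in place of the authors' scaling, the median of all genes moved by 0.56 in that comparison, and the log2 ratio of the H2A sum went from -2.56 to -2.0.

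The largest falls of single genes are given for orientation. In shLuc EBs of 24 h Hist1h2ag had 39 reads and an RPKM of 4.29, against 218 reads and 82.6 in ES cells, a log2 fold of -4.23 (exact binomial 95% interval -4.80 to -3.77). Hist1h2an had 1.86 in shSmyd5 EBs of day 6 and 75.6 in shSmyd5 ES cells (log2 fold -5.27, -5.80 to -4.93). The H1 gene Hist1h1a had 0 reads in shSmyd5 EBs of day 6 against 110 in ES cells, which is at least 59.8-fold lower when 3 reads are taken as the floor.

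A test over the libraries set the 6 late libraries (EBs of days 6, 10 and 14) against the 4 early ones (ES cells and EBs of 24 h), with the shRNA as a term (edgeR quasi-likelihood test, Benjamini-Hochberg adjustment over 12277 genes whose mean RPKM was 1 or more). Of the 68 histone genes 36 had this level and 17 of them were lower in the late libraries at an adjusted p of 0.05, whereas none was higher (23 of either direction had an unadjusted p under 0.05). Among all 12277 genes 13.5% (1657) were lower and 2164 were higher. DESeq2 called 20 histone genes, all lower, and limma on log2 RPKM called 6, of which Hist3h2ba was higher. The 17 were 15 H2A genes, the H2B gene Hist1h2bp and the H3 gene Hist1h3d. The largest change was that of Hist1h2bp, with RPKM values of 1.51, 1.62, 2.19 and 3.14 in the early libraries and 0.131 to 0.516 in the late ones (log2 fold -2.97, 95% interval -4.36 to -1.58, adjusted p = 0.0062). Hist1h3d had 0.407 to 3.39 in the early and 0.156 to 1.05 in the late libraries, which overlap (log2 fold -2.38, -3.99 to -0.78, adjusted p = 0.030). In H2A the 3 largest changes were those of Hist1h2an (-2.32, -3.75 to -0.89), Hist1h2af (-2.23, -3.52 to -0.93) and Hist1h2ah (-2.21, -3.58 to -0.84). They were followed by Hist1h2ai (-2.19), Hist1h2ad (-2.12), Hist1h2ab (-2.11), Hist1h2ae (-2.04) and Hist1h2ag (-1.96).

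The number of calls depended on the stage left out. Without the ES cell libraries 2 histone genes were called, without EBs of day 10 there were 7 and without EBs of day 14 there were 4. The share of all genes called is not given here for these fits, nor for DESeq2 and limma on the late libraries. With all 8 EB libraries set against the 2 ES cell libraries, a comparison chosen after the values were seen, 9 of 36 histone genes were lower at an adjusted p of 0.05 and none was higher by edgeR (DESeq2 called 16, 1 of them higher), against 1.02% of all genes that were lower. Without EBs of day 6, of day 10 or of day 14 there were 0 (and 0 among all genes, with 21, 20 and 18 histone genes at an unadjusted p under 0.05). Without EBs of 24 h there were 21, for which the share of all genes is not given here. All 9 were H2A genes, led by Hist1h2an (log2 fold -2.92, -4.06 to -1.77, adjusted p = 0.040), Hist1h2ah (-2.86, -3.85 to -1.87) and Hist1h2af (-2.84, -3.77 to -1.90). Nothing says that the libraries came from separate cultures, so these p-values measure only the spread between these libraries.

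Base composition and other RNAs without a tail are given beside the H2A genes. The coding sequences of H2A genes have a median GC content of 69.4%, those of H1 genes 59.6%. A trend on length and on the GC content of the GENCODE transcript closest in length was taken out of the folds. That GC content can differ from the coding sequence, as in Hist1h2ai (52.1% against 70.3%) and Hist1h2ad (59.4% against 69.7%). The median log2 fold of the 18 H2A genes at 24 h in shLuc then went from -2.44 to -1.82. For the 17 compared on day 6 it went from -2.46 to -1.34. With the same correction in the fit, 8 histone genes were lower in the late libraries and 0 in the EBs against ES cells (edgeR, 15 at an unadjusted p of 0.05), where 1 gene was called among all. For the late libraries the share of all genes under this correction is not given here. Of 119 listed RNAs that have no polyA tail, mainly snoRNAs and scaRNAs, those of sufficient level were at least 2-fold lower in 33 of 57 cases at 24 h (12 were higher, and 42.7% of all genes were lower) and in 40 of 54 on day 14 (3 higher, 26% of all genes lower) in shLuc. In shSmyd5 it was 31 of 54 at 24 h (7 higher, 21.6% of all genes lower) and 37 of 51 on day 14 (1 higher, 19.3%). The 119 RNAs held 371 reads in shLuc ES cells, with 46 RNAs at 0, and 2216 in shSmyd5 ES cells, with 25 at 0. Those that reached the level in ES cells alone nearly had to be lower, and they were not counted apart here. Over the libraries edgeR called 1 of the 69 tested lower in the late libraries and 0 in EBs against ES cells, with 6 and 7 at an unadjusted p under 0.05 (3 and 1 called by DESeq2). Their summed RPKM was 713 and 628 in shLuc and shSmyd5 ES cells and 436 and 331 at 24 h. Rpph1, the RNA of RNase P, had 14.9 and 5.53 in ES cells and 0.239 to 2.93 in EBs. The part of either in the level of the H2A genes was not tested.

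Among the H1 genes, which encode the linker histone, the highest was Hist1h1c, listed with a transcript of 1561 bases. Its RPKM in shLuc was 1.95 in ES cells, 8.47 at 24 h, 1.71 on day 6, 5.66 on day 10 and 21.5 on day 14. In shSmyd5 it was 1.61, 6.09, 2.88, 6.03 and 18.6. Both series were low in ES cells and on day 6 and highest on day 14, and their log2 fold on day 14 against ES cells was 3.39 (2.78 to 4.24) in shLuc and 3.46 (3.24 to 3.85) in shSmyd5. The test of EBs against ES cells gave a log2 fold of 2.35 (0.20 to 4.51), which missed the threshold (edgeR adjusted p = 0.13).

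The next H1 genes went the other way. Hist1h1a had 3.60 and 3.73 in shLuc and shSmyd5 ES cells and 0 to 0.759 in the 8 EB libraries. Hist1h1b had 2.13 and 3.77 in ES cells and 0 to 0.997 in EBs, with 0 reads in the shSmyd5 libraries of 24 h and day 6. Both ES cell libraries were above all EBs for each of these genes. The remaining H1 genes had no RPKM of 3 in any library.

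Among the H2B genes, whose protein pairs with H2A, Hist1h2bc was the highest. It had an RPKM of 5.41 in shLuc ES cells and of 76.0, 8.23, 4.46 and 17.2 in shLuc EBs of 24 h and days 6, 10 and 14. In shSmyd5 it had 4.66 in ES cells and 27.0, 26.3, 5.36 and 16.1 in the EBs. It was thus high at 24 h in shLuc, and at 24 h and on day 6 in shSmyd5, with the 2 shRNAs side by side in ES cells, on day 10 and on day 14. At 24 h this 1 gene made up most of the H2B sum of 97.0 in shLuc and 43.1 in shSmyd5.

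Hist3h2ba, a H2B gene beside Hist3h2a on chromosome 11, had 1.73 in ES cells, 1.76 at 24 h, 5.22 on day 6, 6.30 on day 10 and 4.36 on day 14 in shLuc. In shSmyd5 the values were 1.14, 2.77, 4.26, 3.41 and 2.43. All EB values lay above the ES cell values of both shRNAs. The third H2B gene, Hist1h2bk, was low, at 0.273 (shLuc, 24 h) to 2.63 (shSmyd5, 24 h). The median over the 19 H2B genes was 1.51 in shLuc and 1.65 in shSmyd5 ES cells and 0.245 to 1.09 in EBs.

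Among the H3 genes, Hist2h3c1 had the highest mean level, with an RPKM of 0.687 in ES cells, 10.2 at 24 h, 1.45 on day 6, 0.738 on day 10 and 0.790 on day 14 in shLuc. In shSmyd5 it had 0.555, 1.78, 3.70, 0.912 and 0.910. Like Hist1h2bc it peaked at 24 h in shLuc and was higher in shSmyd5 than in shLuc on day 6. The GENCODE span of Hist2h3c1 overlaps that of Hist2h2aa1 on the same strand, so reads of the overlap cannot be told apart.

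Hist1h3c had 2.99 and 4.96 in shLuc and shSmyd5 ES cells and 0.0995 to 1.10 in EBs. Hist1h3g had 1.46 and 3.55 in ES cells, 2.12 and 2.48 at 24 h, 1.51 and 0.0947 on day 6, 0.534 and 0 on day 10 and 0.681 and 0.623 on day 14. The H3 sum was lower in every EB library from day 6 on than in both ES cell libraries.

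The H4 genes were low in all libraries. Hist1h4i, the highest of them, had an RPKM of 2.67 in ES cells, 9.99 at 24 h, 1.99 on day 6, 1.34 on day 10 and 4.32 on day 14 in shLuc, and 3.35, 1.73, 0.347, 1.79 and 3.00 in shSmyd5. Its shLuc library of 24 h stood above the other 9. Hist1h4d had 2.30 and 2.84 in ES cells and 0.210 to 1.09 in EBs, and Hist1h4n had 2.87 and 1.71 in ES cells and 0.0995 to 0.993 in EBs. Hist1h4n is listed at 2 places, and the values differ between them. At the other place it had 0.574 (1 read) in shLuc and 2.60 in shSmyd5 ES cells, and 0.689 in shSmyd5 EBs of 24 h.

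**Figure D3:**
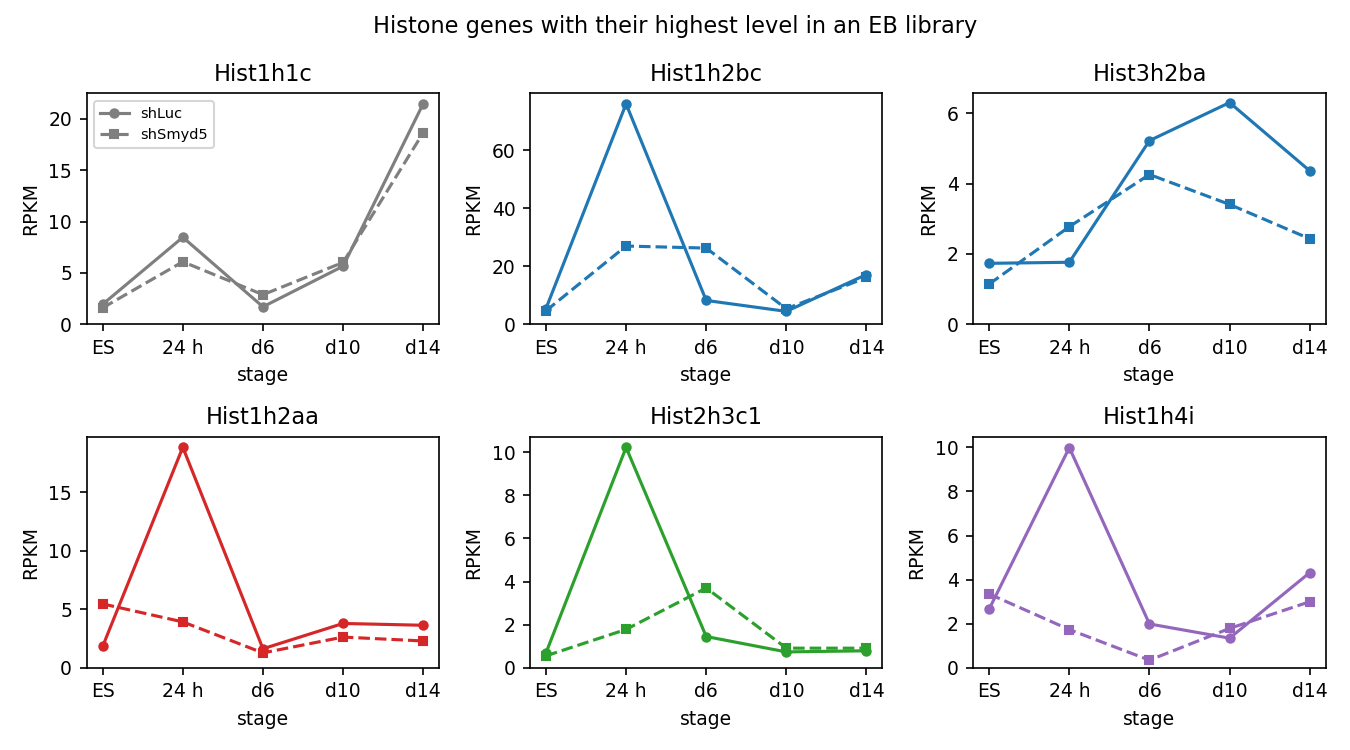
RPKM by stage of 6 histone genes with their highest level in an EB library, with circles and solid lines for shLuc and squares and dashed lines for shSmyd5, 1 library per point. Hist1h2bc, Hist1h2aa, Hist2h3c1 and Hist1h4i peak in shLuc EBs of 24 h (76.0, 18.8, 10.2 and 9.99), and Hist1h1c on day 14 with either shRNA.

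A fit with the stage as a block asked for an effect of the Smyd5 knockdown that all 5 stages share (edgeR quasi-likelihood test over 12277 genes). None of the 36 histone genes tested passed an adjusted p of 0.05, as for all genes (0%), and 7 of the 36 had an unadjusted p under 0.05, as did 1425 of all genes. DESeq2, which called 336 genes, called 0 histone genes. The log2 folds lay between -1.44 and 0.82, with a median of -0.55 beside -0.007 over all genes, and 29 of the 36 were below 0. The H2A genes among them can share reads, so the 29 are not separate observations. Without the filter on level edgeR called 163 of 19819 genes, and 0 of the 68 histone genes. The stages are given one by one as a description of these libraries.

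In ES cells 5 of 31 histone genes with an RPKM of 3 or more in either library were at least 2-fold apart, a share near the 15.8% of all genes. The 3 highest folds were those of Hist1h3e (4.75 in shSmyd5 and 0.436, from 1 read, in shLuc, log2 fold 3.18, 0.92 to 8.77), Hist1h2aa (5.46 and 1.84, 1.52, 0.16 to 3.48) and Hist1h3b (3.39 and 1.31, 1.31, -0.25 to 3.70). The lowest was Hist1h2ao (176 and 360.0, -1.03, -1.13 to -0.93), followed by Hist1h2an (-0.84) and Hist1h2bn (-0.79). The 4 higher genes, Hist1h3b, Hist1h3e, Hist1h3g and Hist1h2aa, reached an RPKM of 3 in shSmyd5 alone. They had few reads in the shallow shLuc library (3, 1, 4 and 4), and for Hist1h3b and Hist1h3g the interval took in 0.

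At 24 h 9 of 23 histone genes were at least 2-fold apart, against 17.3% of all genes, 3 of them higher and 6 lower in shSmyd5. The 4 genes that reached an RPKM of 3 in shLuc alone (Hist1h2ba, Hist1h4i, Hist2h3c1 and Hist2h2ac) were all among the 6, and such genes nearly had to be lower. Of the 19 that reached it in shSmyd5, 2 were lower. The 3 higher ones were the H2A genes Hist1h2ao (log2 fold 1.88, 1.72 to 2.05), Hist1h2ap (1.82, 1.65 to 1.99) and Hist1h2ag (1.67, 1.20 to 2.21). The 6 lower ones were Hist1h2ba (0.0622 in shSmyd5 from 1 read, 3.66 in shLuc from 27 reads, log2 fold -4.54, -11.23 to -3.28), Hist1h4i (-2.46), Hist2h3c1 (-2.46), Hist2h2ac (2.45 and 12.7, -2.33), Hist1h2aa (-2.23) and Hist1h2bc (-1.49). These 6 belong to the H2A, H2B, H3 and H4 types, and in shLuc each of them but Hist2h2ac was higher at 24 h than in ES cells.

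Hist1h2aa and Hist1h2ba encode the testis variants TH2A and TH2B and lie head to head on chromosome 13, 305 bases apart. Hist1h2aa had an RPKM of 1.84, 18.8, 1.63, 3.79 and 3.63 over the 5 stages in shLuc and of 5.46, 3.92, 1.27, 2.63 and 2.29 in shSmyd5. Hist1h2ba had 2.80, 3.66, 0.0806, 0.513 and 1.07 in shLuc and 0.858, 0.0622, 0.121, 0.167 and 1.53 in shSmyd5. For both genes the shLuc library of 24 h was the highest of the 10.

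Day 6 was the stage with the most histone genes apart between shSmyd5 and shLuc. Of 18 histone genes 13 were at least 2-fold apart, 11 lower and 2 higher in shSmyd5, against 27.6% of all genes. All 11 lower ones were H2A genes, of which 15 had the level to be compared, and 4 of the 11 had it in shLuc alone. The lowest were Hist1h2an (1.86 in shSmyd5 and 12.6 in shLuc, log2 fold -2.70, -3.24 to -2.32), Hist1h2ah (3.33 and 17.7, -2.37, -2.77 to -2.07) and Hist1h2af (3.20 and 15.4, -2.23, -2.63 to -1.91). The higher ones were Hist1h2bc (26.3 and 8.23, 1.66, 1.51 to 1.84) and Hist2h3c1 (3.70 and 1.45, 1.29, 1.09 to 1.61), and Hist1h2ap came next (0.47, 0.37 to 0.57). Over all genes the median log2 fold was -0.35 at this stage, and that of the 15 H2A genes -1.85, or -1.97 with the GC and length trend taken out. The endoderm markers summed to 31 in shLuc and 130.4 in shSmyd5 at this stage and the ES cell markers to 238 and 64.3, and their part in the difference was not tested.

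On day 10 the difference was smaller. Of 21 histone genes 6 were at least 2-fold apart (9.66% of all genes), all of them H2A genes that were lower in shSmyd5. Hist1h2ac, 1 of the 6, reached an RPKM of 3 in shLuc alone. The lowest were Hist1h2ah (13.9 and 33.3, log2 fold -1.26, -1.62 to -0.92), Hist1h2ac (-1.12) and Hist1h2ag (-1.11), and the highest were Hist1h2bc (0.26), Hist1h1c (0.09) and Hist3h2a (0.07). With the GC and length trend taken out 2 histone genes were 2-fold apart. The feeder and mesenchyme markers summed to 248 in shLuc and 80.0 in shSmyd5 on day 10. The endoderm markers summed to 954 and 702, most of it Afp (922 and 626). Gata6 (21.9 and 44.8) and Sox17 (10.8 and 30.7) were higher in shSmyd5. The part of these markers in the difference was not tested. On day 14 none of 20 histone genes was 2-fold apart (7.24% of all genes), with folds from -0.82 (Hist3h2ba, -1.33 to -0.37), -0.74 (Hist1h2ak) and -0.64 (Hist1h2aa) to -0.14 (Hist2h2ac), -0.13 (Hist3h2a) and -0.09 (Hist1h2bc), all below 0.

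**Figure D4:**
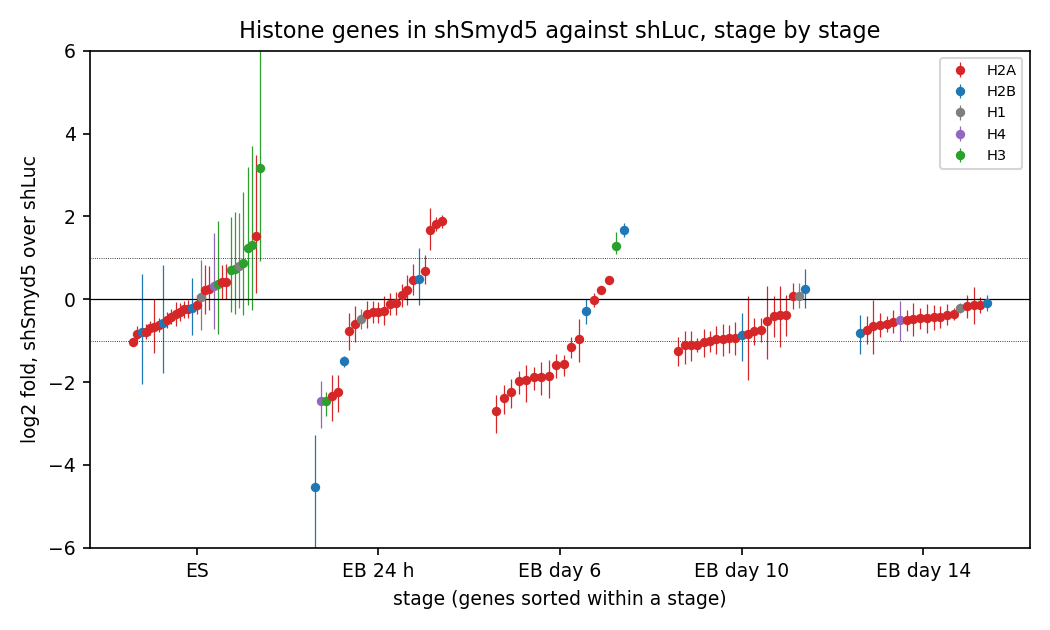
Log2 fold of shSmyd5 over shLuc (RPKM plus 0.1) for the histone genes that reached an RPKM of 3 in either library, sorted within each stage and coloured by type; bars are exact binomial 95% intervals (counting error only) and some run past the axis, and dotted lines mark 2-fold. The H2A genes (red) are mostly below 0 on day 6, with the lowest at -2.70, and span both sides at 24 h.

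Hist1h2ao and Hist1h2ap stood apart from the other H2A genes, an observation made after the values were seen. Hist1h2ao had an RPKM of 360.0 in ES cells, 35.9 at 24 h, 53.1 on day 6, 99.6 on day 10 and 46.1 on day 14 in shLuc, and of 176, 132, 62.1, 46.2 and 35.9 in shSmyd5. Hist1h2ap had 164, 43.2, 53.3, 50.7 and 35.1 in shLuc and 102, 153, 73.8, 25.1 and 23.3 in shSmyd5. Both were thus high in shSmyd5 EBs of 24 h, where the median of the other 16 H2A genes was 11.5 against 12.2 in shLuc. On day 6, where that median was 2.88 in shSmyd5 and 9.63 in shLuc, the folds of Hist1h2ao and Hist1h2ap were above 0. Without this pair the H2A sum at 24 h was 163 in shSmyd5 and 189 in shLuc, a log2 ratio of -0.21 in place of 0.74, and on day 6 it was 48.4 and 166, a log2 ratio of -1.78 in place of -0.56.

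Whether the pair is 2 separate measurements cannot be told from these counts. Each of both transcripts is listed on either strand, at 2 places, and GENCODE puts Hist1h2ao at chr13:21902236-21902754 (plus strand) and Hist1h2ap at chr13:21924926-21925444 (minus strand). Their coding sequences have no 31-base word at 1 place only. The listed Hist1h2ap is 393 bases long, the length of the coding sequence with its stop codon, and has 76.5% of the length of the listed Hist1h2ao. The reads of Hist1h2ap were 34.9% of those of Hist1h2ao in shLuc ES cells (exact binomial 95% interval 30.8 to 39.3, with both taken as separate counts) and 44.1% in shSmyd5 ES cells, 38.9% and 41.5% on day 10 and 58.3% and 49.5% on day 14. At 24 h they were 92.1% (79.0 to 107) in shLuc and 88.3% (83.6 to 93.2) in shSmyd5, and on day 6 76.6% and 90.8%. The ratio of the reads of the shorter to the longer model thus differed between libraries by more than counting error, below the share of the length in ES cells and on days 10 and 14 and above it at 24 h.

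**Figure D5:**
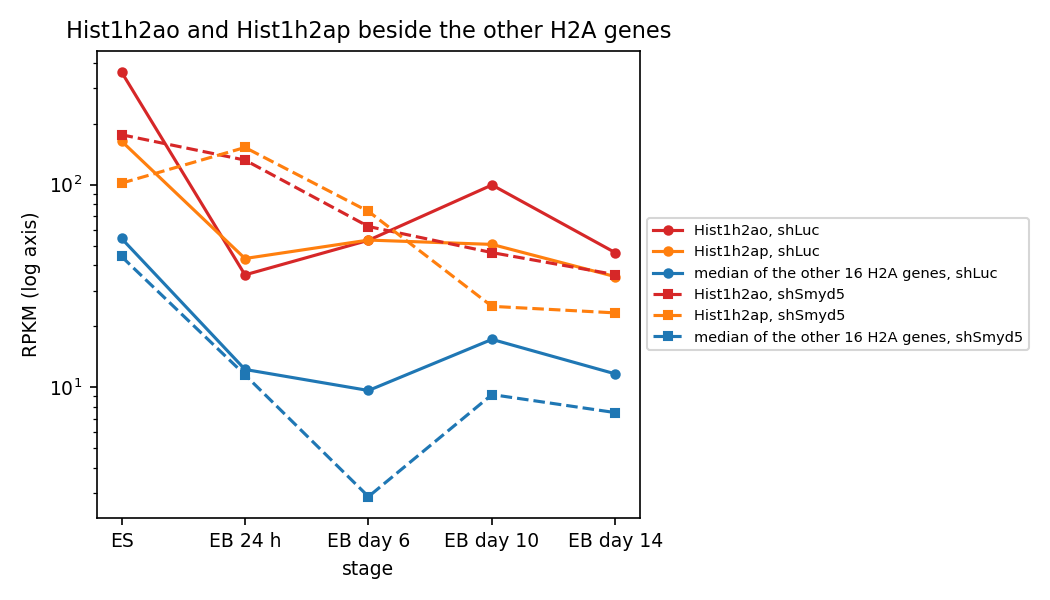
RPKM (log axis) of Hist1h2ao, of Hist1h2ap and the median of the other 16 H2A genes by stage, with circles and solid lines for shLuc and squares and dashed lines for shSmyd5, 1 library per point. At 24 h the shSmyd5 values of Hist1h2ao and Hist1h2ap (132 and 153) lie far above those of shLuc (35.9 and 43.2), whereas both medians are near 12.

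Genes that work with these histones are given as lists. Of 17 genes for the synthesis and 3′ processing of histone mRNA all had the level to be tested, and 5 were lower and 0 higher in the late libraries, with a median log2 fold of -0.39 beside -0.01 over all genes (edgeR; 7 were called by DESeq2 and 11 with the GC and length offset, which left 8 histone genes). The 5 were Mif4gd, an SLBP partner in translation (-1.74, -2.51 to -0.98), Srrt (-1.69), Lsm1 (-1.25), Zfp473, a U7 snRNP partner (-1.19), and the cap-binding gene Ncbp2 (-0.77). Slbp had an RPKM of 46.7 and 61.3 in shLuc and shSmyd5 ES cells, 128 and 100.4 at 24 h and 45.1 to 68.2 later, and missed the threshold (-0.98, adjusted p = 0.078), as did Npat, the coactivator of histone genes (0.11). Slbp was highest at 24 h, where the H2A sums were lower than in ES cells, and a link between them was not tested. Among all 12277 genes 1657 were lower and 2164 higher in the late libraries. Of the 22 S phase genes 13 were lower and 0 higher, with a median of -1.18 (18 were called with the offset and 17 by DESeq2). Ccne1, a G1/S cyclin gene, fell most (-2.99, -3.87 to -2.12), with 136 and 129 in ES cells and 10.7 and 7.49 on day 14. Its relative Ccne2 had 1.96 and 4.37 in ES cells and 26.2 and 30.3 at 24 h.

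Of the 13 replication-independent variants, whose mRNAs carry a polyA tail, 11 were tested. Of these 3 were lower in the late libraries (H2afj, H2afx and Cenpa), where 1657 of all 12277 genes were lower and 2164 higher. The linker histone gene H1f0 was the 1 variant that was higher (log2 fold 1.56, 0.74 to 2.38, edgeR adjusted p = 0.011). H1f0 had an RPKM of 35.8 and 28.0 in shLuc and shSmyd5 ES cells and 122 and 161 on day 14. H2afx, which has the stem-loop as well as a polyA form, had 246 and 108 in ES cells, 109 and 201 at 24 h and 55.9 to 133 later. At 24 h H2afx was thus higher in shSmyd5, as Hist1h2ao and Hist1h2ap were. The sum of the variants was 1139.9 and 1063 in ES cells and 1646 and 1664 at 24 h, whereas the 68 replication-dependent genes summed to 1655 and 1153 in ES cells and to 412 and 509.9 at 24 h. By these sums the variants were below the replication-dependent genes in ES cells and above them at 24 h. In shSmyd5 ES cells the sums were close, and their order may rest on reads counted under more than 1 gene. That sum holds Hist1h2ap (102) and Hist2h2aa2 (33.3), which share their coding sequence words with other H2A genes.

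In the shared effect of the knockdown none of these lists had a gene called by edgeR. At an unadjusted p of 0.05 there were 1 of 17 processing genes, 3 of 22 S phase genes, 2 of 11 variants and 2 of 69 RNAs without a tail, and DESeq2 called 1 gene, in the S phase list. On day 6, 6 of 16 processing genes and 7 of 22 S phase genes were at least 2-fold lower in shSmyd5 and none higher, where 19.4% of all genes were lower and the median log2 fold of all genes was -0.35, beside 21 lower and 5 higher of 39 RNAs without a tail.

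The genes outside the family whose RPKM over the 10 libraries was most like the summed RPKM of the 68, by the rank correlation among 9766 genes whose mean RPKM was 3 or more, were Cars2 (rho = 0.988), Cenpt (0.988), H2-M5 (0.976), Isoc2a (0.976) and Nkx6-2 (0.964). Cars2, a mitochondrial tRNA synthetase gene, had 14.4 and 12.1 in shLuc and shSmyd5 ES cells and 1.16 to 5.90 in EBs. The 10 libraries share their scaling, and the sum is in the main that of H2A.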

How the data were processed

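RNA-Seq libraries of polyA RNA from R1 mouse ES cells and EBs were used, 1 for each of 2 shRNAs at 5 stages. The authors used CASAVA and Bowtie2 on mm9 (versions not given in the sources used here), and double-stranded cDNA was ligated, so no strand is known. The deposited read counts are whole reads per RefSeq transcript (29257 transcripts), and the deposited RPKM values are scaled by the authors to transcript length and library size. RPKM lay within 1% of the value its reads and length give in 100% of 127485 values with over 200 reads.

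For each symbol the transcript with the highest mean read count was kept. Members were found by symbol. The members, the gene lists and the tests were chosen with earlier results of these data known. Folds were log2 of RPKM plus 0.1, with exact binomial 95% intervals from the reads and libraries of 3895537 to 43377814 reads in genes, and 3 reads as the floor for a library at 0. Tests across libraries were edgeR quasi-likelihood tests of the counts with TMM factors, over genes whose mean RPKM was 1 or more, with Benjamini-Hochberg adjustment. The stage was the block in the test of the knockdown and the shRNA a term in the tests of stage. Alternatives were DESeq2, limma on log2 RPKM, other scaling, filters, pseudocounts (1, 0.01) and transcripts, a spline offset on GC content and length, and each stage left out. The GC content in the offset was that of the GENCODE transcript closest in length to the listed one. The edgeR fits with TMM factors were tested on simulated counts, in which libraries differed only in depth and in the changes put in. The alternatives were not tested in this way. Genes named are the 3 highest of each type, the members past the threshold (at most 10 a direction), the 3 highest and lowest folds of the knockdown at each stage and the 5 genes most alike in pattern; others named were chosen after their values were seen. Stem-loops and the uniqueness of 31-base words came from the NCBIM37 genome with GENCODE release M1. R 4.3.3 ran DESeq2 1.42.0, limma 3.58.1 and edgeR 4.0.16, and Python 3.11.15 ran scipy 1.17.1, pandas 2.3.3, numpy 2.4.6 and matplotlib 3.10.9. ChIP-Seq data were not used here.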

Additional observations from a re-analysis of the deposited data

Results flagged for a closer look

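In 6 histone genes the shSmyd5 library was at least 2-fold above the shLuc library at 1 stage and at least 2-fold below it at another, with a counting interval that excluded 0 at both. With 1 library per condition the difference between the stages was not tested. The share of all genes that change in this way is not given here, and Hist1h2ao and Hist1h2ap may not be separate measurements. Hist1h2aa had a log2 fold of 1.52 (0.16 to 3.48) in ES cells and of -2.23 (-2.71 to -1.83) at 24 h. Its fold in ES cells rests on 4 reads in shLuc, the shallowest library, and it reached an RPKM of 3 there in shSmyd5 alone. For Hist1h2ag the values were 1.67 at 24 h and -1.58 on day 6. Hist1h2ao had 1.88 at 24 h and -1.11 on day 10, and Hist1h2ap 1.82 and -1.01. The remaining pair went the other way in time, with -1.49 at 24 h and 1.66 on day 6 for Hist1h2bc and -2.46 and 1.29 for Hist2h3c1. At both of these stages Hist2h3c1 reached an RPKM of 3 in its higher library alone. No group held the 4 libraries that a search for outlying samples needs.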

How the results depend on the processing

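For the late against the early libraries (17 histone genes), limma called 6 with a pseudocount of 0.1 and 7 with 1, the GC and length offset, an alternative chosen after the data were seen, left 8, and leaving out each stage gave 2 to 21. For EBs against ES cells (9), a comparison also chosen after the data were seen, DESeq2 called 16, the offset left 0 and leaving out each EB stage gave 0 to 21. For the knockdown shared over the stages all alternatives gave 0, with and without the stage as a replicate block. No other pairing was possible because the libraries carry no replicate number. Except where stated above, the share of all genes called under an alternative is not given. These counts alone thus do not set the histone genes apart from genes at large.

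Between shSmyd5 and shLuc, a pseudocount of 1 gave 3 genes in ES cells (5) and 3 on day 10 (6). A minimum RPKM of 1 gave 14 in ES cells and 20 at 24 h (9). A fold of 1.5 gave 15 in ES cells, 14 on day 10 and 5 on day 14 (0), and the trend removed left 2 on day 10. Against ES cells, the minimum of 1 gave 40 (23), 40 (20), 45 (22) and 39 (22) genes in shLuc and 47 (24), 52 (29), 50 (28) and 45 (28) in shSmyd5, at 24 h and on days 6, 10 and 14. The trend removed left 13 and 18 on day 10.

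The log2 ratios of the H2A sum were moved by more than counting error. In ES cells (-0.58) they were -0.49 with summed reads as a share of all reads, -0.49 with TMM factors and -0.44 without Hist1h2ao and Hist1h2ap. At 24 h (0.74) they were 0.60, 0.56 and, reversed, -0.21. On day 6 (-0.56) they were -0.38, -0.21 and -1.78, and on day 10 (-0.95) TMM factors gave -0.86. At 24 h against ES cells they were -2.22, -2.0 and -2.48 in shLuc (-2.56) and -1.14, -0.95 and -2.25 in shSmyd5 (-1.24).

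Folds that had missed the threshold changed sign in a few cases. Late over early, these were, with a stage left out, Hist1h1c (-0.14 without ES cells, -0.61 without day 14 and up to 2.31), Hist1h2bc (-2.51 to 1.36), Hist2h3c1 (-2.64 to 1.21) and Hist1h3c (0.83 without ES cells). In EBs over ES cells Hist1h4i had 0.51 with the offset and -0.68 to 0.13 with a stage left out. The causes of these changes were not tested. Of the alternatives for the counts and the H2A sums 110 kept their direction and size, 45 moved and 1 reversed. For single genes and the sums of other types 425 kept their direction and call or size, 92 lost the call, 17 gained it, 31 moved and 7 changed sign. With few reads in H1, H3 and H4 genes, small differences were not detectable at this depth.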
